A study of Mus musculus with 10 samples.

Results

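Iron handling in the adult heart was described through 8 genes that store, import, export or sense iron or build iron-sulfur clusters: Fth1, Ftl1, Tfrc, Slc40a1, Aco1, Ireb2, Iscu and Nfs1. They were chosen by symbol for these roles and not for their measured values. All 8 were found among the 24537 genes of the count table, all 8 were among the 17728 genes that passed the filter of at least 10 counts over all libraries, and all 8 received an adjusted p.

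Iron enters cells bound to transferrin through the transferrin receptor (Tfrc), is stored inside shells built of ferritin heavy (Fth1) and light (Ftl1) chains, and leaves through ferroportin (Slc40a1). The iron regulatory proteins, encoded by Aco1 and Ireb2, bind a stem-loop called the iron-responsive element when iron is scarce. Binding near the start of a message blocks its translation, and binding behind the coding sequence slows its decay. Aco1 loses its RNA binding when it holds an iron-sulfur cluster and then acts as the aconitase of the cytosol, whereas Ireb2 is controlled through degradation of its protein. Clusters are built in mitochondria on the scaffold protein Iscu with sulfur supplied by the cysteine desulfurase Nfs1. Exposed iron-sulfur clusters of mitochondrial enzymes are known targets of superoxide, which SOD2 removes from the mitochondrial matrix, and for that reason these genes are of interest in mice that passed through a phase of SOD2 loss.

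RNA was sequenced from heart tissue of 10 mice aged 6 weeks, taken from the same region of transverse sections in each, 5 littermate controls (Rosa26-rtTA2+/-;TRE-SOD2-shRNA-/-) and 5 iSOD2 mice (Rosa26-rtTA2+/-;TRE-SOD2-shRNA+/-). All 10 carried 1 copy of the doxycycline-dependent transactivator rtTA2 at the Rosa26 locus, which is active in most cell types, and all 10 were exposed to doxycycline in utero through chow given to C57BL/6J dams from conception to birth. The iSOD2 mice also carried 1 copy of an inducible short hairpin RNA against Sod2, so its knockdown was neither restricted to the heart nor still driven at the age of sampling. There were 3 male and 2 female controls and 2 male and 3 female iSOD2 mice. Litter A gave 2 mice of each genotype and litter B gave 3 of each, so that genotype could be compared within litters. Mice are named by genotype and the number in their label.

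The iron-responsive elements of the genes are shown first because they divide the set by how its messages are read. A search was made on the sense strand of 1 GENCODE M21 transcript (GRCm38, the same assembly as mm10) per gene for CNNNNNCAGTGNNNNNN in which the 5 bases before and the 5 bases after the 6-base loop can pair, G with T included. At least 1 match was held by 263 of 23805 genes with a matched transcript (1.1%), and 18 genes (0.076%) held one in the 5′ UTR. Fth1, Ftl1 and Slc40a1 each had 1 match, in the 5′ UTR, at chr19:9982732-9982760 (plus strand), chr7:45459779-45459807 (minus strand) and chr1:45925465-45925493 (minus strand). Tfrc had 4, all in the 3′ UTR on the plus strand, at chr16:32631219-32631247, chr16:32631598-32631626, chr16:32631663-32631691 and chr16:32631710-32631738. The 29 bases around each match are printed 5′ to 3′ with the loop in capitals.
Fth1: ttcctgcttcaaCAGTGCttgaacggaac
Ftl1: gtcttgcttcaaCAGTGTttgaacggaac
Slc40a1: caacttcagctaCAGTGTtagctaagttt
Tfrc 1: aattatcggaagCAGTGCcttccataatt
Tfrc 2: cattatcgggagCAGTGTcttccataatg
Tfrc 3: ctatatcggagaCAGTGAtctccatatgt
Tfrc 4: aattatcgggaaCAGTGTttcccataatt

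Fth1 and Ftl1 shared 26 of these 29 bases at the same positions, Fth1 and Slc40a1 shared 13, and Fth1 and the Tfrc elements shared 9 to 11. Among themselves the Tfrc elements shared 18 to 25. Tfrc was the only gene with as many as 4 matches, the next most being 2. No match was found in the transcripts of Aco1, Ireb2, Iscu and Nfs1, which says only that these letters were not in those windows. Matches were found by sequence alone, and whether they bind the iron regulatory proteins was not tested. Slc11a2, given further on as known for an iron-responsive element, held no match. The genes with a match are therefore not the same as the messages controlled by iron. They were also read out from the comparison of genotypes. There a call needs an adjusted p of at most 0.05 and a log2 fold change beyond 0.25 in either direction. Such calls took in 2.96% of the 9479 genes tested, 6.09% passed the adjusted p alone and 20.0% had an unadjusted p under 0.05. Of 13 genes with a match in the 5′ UTR and an adjusted p, 6 were higher in iSOD2 mice and 0 were called by DESeq2 or edgeR, 2 having an unadjusted DESeq2 p under 0.05, with a median log2 difference of 0.00. Of 70 with a match in the 3′ UTR, 33 were higher, 13 had an unadjusted DESeq2 p under 0.05, 5 passed the adjusted p and 1 was called, Gm5105 (log2 -0.38, adjusted p = 0.0341, named after its values were seen), with a median of -0.01, the same as the -0.01 of all 9479 genes tested.

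Depth ran from 16448090.5 counts in genes (control 3) to 24263085.5 (iSOD2 mouse 5). Sod2, the target of the hairpin, had 10573 ± 588 normalized counts in controls against 10781 ± 449 in iSOD2 mice (SD, n = 5 each), which did not pass an exact permutation test (two-sided p = 0.532). Lists of markers for cell types of heart and blood, and for hepatocytes, which are liver cells, were compared in the same way. No measured marker was at 0 in all 10 mice, and the 8 cardiomyocyte markers differed by -0.01 on the log2 scale (exact p = 0.897). The 8 hepatocyte markers were all higher in iSOD2 mice, with summed normalized counts of 226 to 9699 in controls and 4843 to 20163 in iSOD2 mice (exact p = 0.0238, adjusted over 6 lists 0.143). Control 1 held the sum of 226, and without it the list difference went from 1.78 to 0.93 on the log2 scale (exact p = 0.0476). The 6 endothelial markers differed by 0.02 (exact p = 0.651) and the 5 fibroblast markers by 0.05 (exact p = 0.508), and erythroid and macrophage markers are given beside the genes they touch.

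The level of each message was read as normalized counts (counts divided by the DESeq2 size factor of the library) per kilobase of exon, so that genes of different length could be compared. Ferritin messages were far above the rest. Fth1 had a mean of 12878 per kilobase over the 10 mice and Ftl1 had 3936. The level of Ftl1 is uncertain, because 90.6% of 50-base stretches of its transcript occur also in other genes. Tfrc followed with 1365, Iscu with 849 and Nfs1 with 670. Aco1 had 328, Ireb2 201 and Slc40a1 131. The ranges over mice of neighbours in this order did not touch except for Tfrc with Iscu and Iscu with Nfs1. The level of Tfrc ranged from 726 to 2481 and was above that of Iscu in 8 of 10 mice, so this pair did not differ beyond its spread. Iscu was above Nfs1 in 10 of 10 mice, by 1.04 to 1.45 times.

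**Figure D1:**
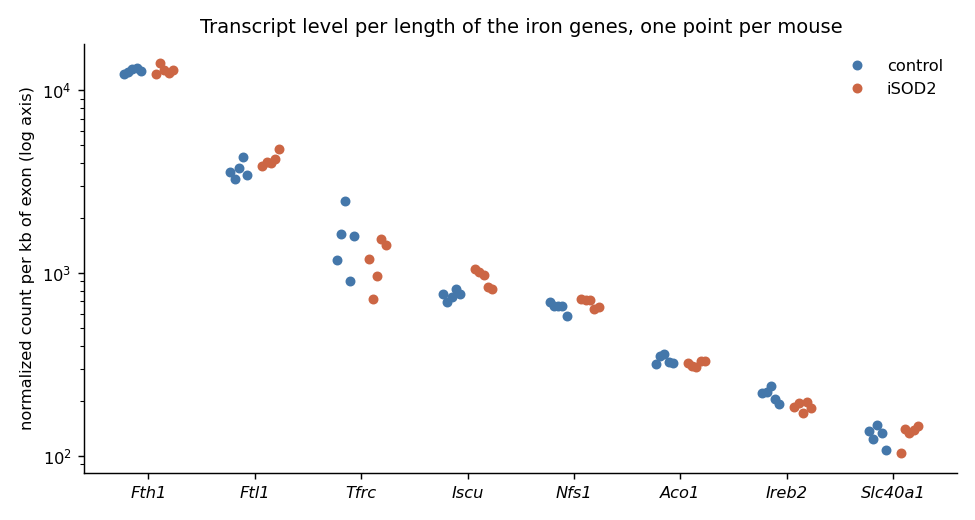
Normalized counts per kilobase of exon (log axis) for each gene, 1 point per mouse, controls in blue and iSOD2 mice in orange, ordered by mean. Fth1 lies highest at a mean of 12878 and Slc40a1 lowest at 131, and Tfrc shows the widest spread, from 726 to 2481.

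The genes also differed in how steady they were between hearts. Over the 10 mice the coefficient of variation of the normalized count was 4.06% for Fth1, and 97.0% of 12151 genes with a mean of at least 50 varied more. Aco1 (5.41%) and Nfs1 (6.53%) were also below the median gene (9.19%). Ireb2 stood at 10.5%, Ftl1 and Slc40a1 at 11.5% each and Iscu at 14.3%. Tfrc stood apart with 36.7%, a value exceeded by 1.76% of genes, and its highest mouse had 3.42 times the count of its lowest. These values include any difference between genotypes, and the genes compared were not matched for level. Within genotypes the median gene had 8.48%, Ireb2 was below it at 7.32%, and Iscu was at 9.5%. Fth1 had 4.28% within genotypes, where 93.1% of genes varied more, and Tfrc had 35.4%.

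Genotypes were compared to ask whether the adult hearts, weeks after the induced knockdown had ended, still differed in iron genes. Calls as defined above took in 2.96% of the 9479 genes tested. Of the 8 iron genes 1 was called, Iscu, which rose by 23.7%. Calls in that direction made up 1.27% of genes and calls of lower genes 1.7%. Ireb2 was lower and passed the adjusted p but not the fold change, and 6.09% of genes passed on p alone. At an unadjusted p under 0.05 stood 3 of the 8 (Iscu, Ireb2 and Ftl1) and 20.0% of the 9479 genes (13.2% when genes without an adjusted p are included). In total 5 were higher (Fth1 among them, which turned lower once a trend with exon length was removed) and 3 were lower in iSOD2 mice, with a median log2 difference of 0.02 against -0.01 for all genes tested, of which 47.2% were higher. In 0 of the 8 did the mice of the 2 genotypes separate without overlap, which 5.71% of genes with an adjusted p did. The quasi-likelihood test of edgeR called 0 of the 8 and 0.0% of all genes, with 3 of the 8 and 15.3% of all genes at an unadjusted p under 0.05. In heart tissue, a change in the number of cells of a type cannot be told apart from a change in RNA per cell.

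**Figure D2:**
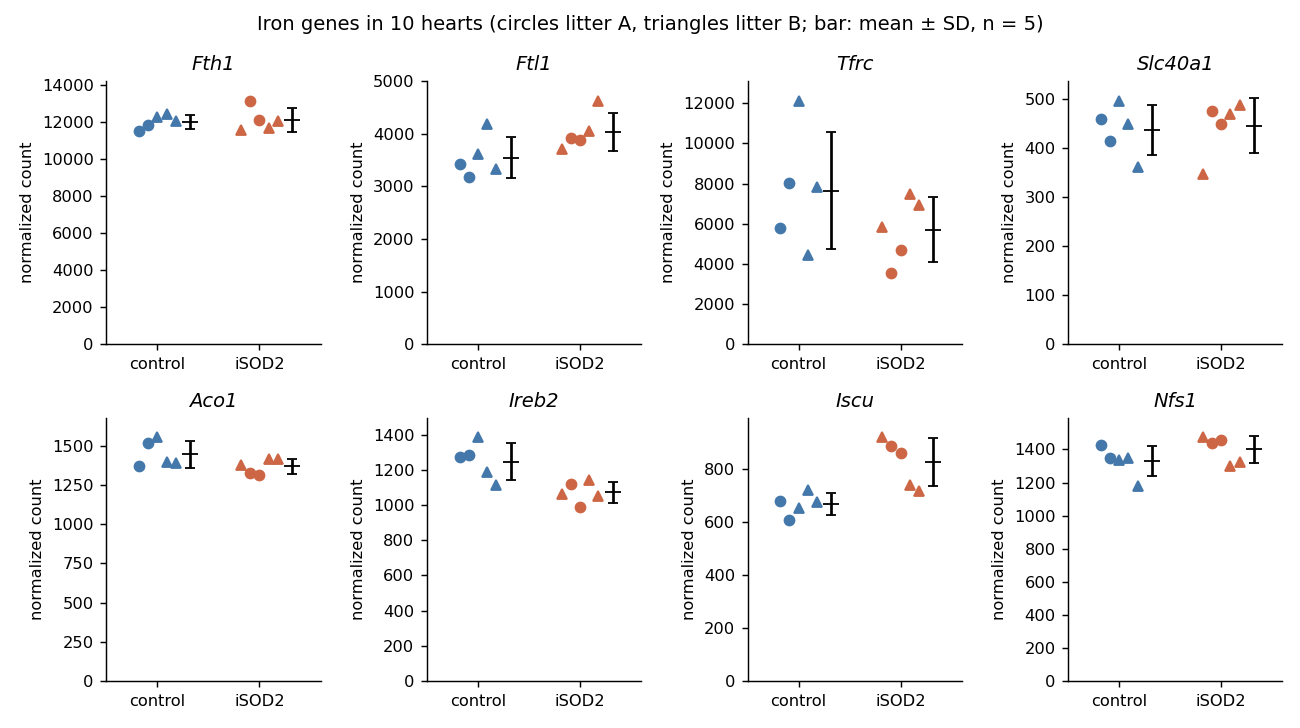
Normalized counts of each gene in each mouse (circles litter A, triangles litter B; controls blue, iSOD2 mice orange), with mean and SD of the 5 mice of a genotype beside the points and axes from 0. For Iscu 4 of 5 iSOD2 mice lie above every control, for Ireb2 3 of 5 lie below every control, and the genotypes overlap in every panel.

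Iscu, the scaffold on which iron-sulfur clusters are put together, was the gene of the set that rose. Iscu (NM_025526, chromosome 5, 113772812 to 113778282, plus strand, 880 bp of exon) had 679, 609, 652, 721 and 677 normalized counts in controls 1, 2, 3, 4 and 6, and 921, 889, 863, 740 and 718 in iSOD2 mice 5, 7, 8, 9 and 10. iSOD2 mice 5, 7, 8 and 9 were above all controls, and iSOD2 mouse 10 fell just under control 4. The means were 668 ± 41.2 and 826 ± 91.5 (SD, n = 5 each), which is a log2 fold change of 0.31 with an SE of 0.08, a 95% interval of 0.14 to 0.47 and an adjusted p of 0.0104 (DESeq2). Males averaged 647 in controls and 814 in iSOD2 mice, and females 699 and 834. In litter A the means were 644 and 876 and the fit within that litter called the gene (log2 0.44, adjusted p = 0.0367), whereas in litter B they were 683 and 793 and the gene was not called (log2 0.21, adjusted p = 0.696). The adjusted p was 0.0560 without control 2 and 0.0646 without control 3, and 0.0989 with edgeR, and after removal of a trend with exon length, described further on, it was 0.278. Of all 50-base stretches in its transcript 23.5% occur also in Gm16437, so part of its counts could be shared.

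Nfs1 works beside Iscu as the source of sulfur, and its difference was smaller than its spread. Nfs1 (NM_010911, chromosome 2, 156123637 to 156144186, minus strand, 2038 bp of exon) had 1425, 1351, 1339, 1351 and 1180 normalized counts in controls 1, 2, 3, 4 and 6, and 1474, 1442, 1459, 1299 and 1325 in iSOD2 mice 5, 7, 8, 9 and 10. iSOD2 mice 5, 7 and 8 were above every control, and iSOD2 mice 9 and 10 were among them. The log2 difference was 0.07 with an SE of 0.06 and a 95% interval of -0.05 to 0.20 (1329 ± 90.3 against 1400 ± 81.4, SD, n = 5 each, DESeq2 adjusted p = 0.550). Exons of Romo1 on the opposite strand covered 7.2% of its exons and those of Gm28036 on the same strand 12.5%, and the counting command stated no strand option, so reads of these genes cannot be told apart there.

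Of the pair of iron regulatory proteins, the message of Ireb2 was lower in iSOD2 hearts and that of Aco1 did not pass the test. Ireb2 (NM_022655, chromosome 9, 54863755 to 54912534, plus strand, 5784 bp of exon) had 1273, 1284, 1387, 1187 and 1113 normalized counts in controls 1, 2, 3, 4 and 6, and 1064, 1121, 989, 1143 and 1054 in iSOD2 mice 5, 7, 8, 9 and 10. iSOD2 mice 5, 8 and 10 were below all controls, and mice 7 and 9 lay between controls 6 and 4. The means were 1249 ± 104 and 1074 ± 60.7 (SD, n = 5 each), which is a log2 fold change of -0.22 with an SE of 0.07, a 95% interval of -0.35 to -0.08 and an adjusted p of 0.0345 (DESeq2). The difference had the same direction within litter A (1279 and 1055, log2 -0.28) and litter B (1229 and 1087, log2 -0.18), with adjusted p of 0.199 and 0.720. It was -0.26 and past both thresholds without control 6 (adjusted p = 0.00817), and -0.18 with an adjusted p of 0.192 without control 3, while edgeR gave an adjusted p of 0.133 and the fit with the length trend removed 0.292.

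Aco1 (NM_007386, chromosome 4, 40143265 to 40199009, plus strand, 4296 bp of exon) had 1371, 1518, 1555, 1396 and 1388 normalized counts in controls 1, 2, 3, 4 and 6, and 1378, 1326, 1314, 1417 and 1415 in iSOD2 mice 5, 7, 8, 9 and 10. Controls 2 and 3 were the highest of the 10 mice and iSOD2 mice 7 and 8 the lowest, with the other 6 mice mixed. The means were 1446 ± 84.5 and 1370 ± 48.2 (SD, n = 5 each), with a log2 difference of -0.08, a 95% interval of -0.18 to 0.03 and an adjusted p of 0.458 (DESeq2).

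The ferritin heavy chain carries the site that oxidizes iron for storage. Before removal of the trend with exon length it was among the steadiest of the 12151 genes compared, which were not matched for level. Fth1 (NM_010239, chromosome 19, 9982646 to 9985111, plus strand, 936 bp of exon) had 11484, 11825, 12268, 12412 and 12035 normalized counts in controls 1, 2, 3, 4 and 6, and 11569, 13150, 12108, 11646 and 12045 in iSOD2 mice 5, 7, 8, 9 and 10. iSOD2 mouse 7 was the highest and control 1 the lowest, and the genotypes overlapped through nearly the whole range. The means were 12005 ± 367 and 12103 ± 631 (SD, n = 5 each). The log2 difference was 0.01 with a 95% interval of -0.08 to 0.10 (DESeq2 adjusted p = 0.920), the narrowest interval of the 8 genes.

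The light chain, which favours formation of the iron core, was higher in iSOD2 mice by 13.8% but did not pass the test. Ftl1 (NM_010240, chromosome 7, 45457944 to 45459886, minus strand, 964 bp of exon) had 3431, 3175, 3626, 4182 and 3334 normalized counts in controls 1, 2, 3, 4 and 6, and 3707, 3912, 3887, 4052 and 4634 in iSOD2 mice 5, 7, 8, 9 and 10. All 5 iSOD2 mice were above the controls other than control 4, which was exceeded by iSOD2 mouse 10 alone. The means were 3550 ± 389 and 4038 ± 355 (SD, n = 5 each), a log2 difference of 0.19 with an SE of 0.08, a 95% interval of 0.02 to 0.35 and an adjusted p of 0.164 (DESeq2). The iSOD2 mean was the higher in litter A (3303 and 3900) and in litter B (3714 and 4131). Without control 4 the gene was called, at 0.25 and an adjusted p of 0.0122. Its counts are uncertain in level, since 90.6% of 50-base stretches of the transcript occur also in 1 or more of 17 other genes, most of all Ftl1-ps1, and 36.7% of its exons are overlapped on the opposite strand by Gm10252.

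Tfrc, which brings transferrin-bound iron into the cell, differed more between mice of 1 genotype than between genotypes. Tfrc (NM_011638, chromosome 16, 32608896 to 32632794, plus strand, 4893 bp of exon) had 5774, 8055, 12140, 4434 and 7829 normalized counts in controls 1, 2, 3, 4 and 6, and 5842, 3555, 4713, 7494 and 6960 in iSOD2 mice 5, 7, 8, 9 and 10. Control 3 was far above all other mice, iSOD2 mouse 7 was the lowest, and the other 8 mice were mixed. The means were 7646 ± 2925 and 5713 ± 1612 (SD, n = 5 each), with a log2 difference of -0.42, an SE of 0.31, a 95% interval of -1.02 to 0.18 and an adjusted p of 0.466 (DESeq2). Without control 3 the difference was -0.19. The mean of litter B was 7450 ± 2610 (SD, n = 6) and that of litter A 5524 ± 1915 (SD, n = 4), and iSOD2 mice were lower in both (6914 and 4134 in litter A, 8134 and 6765 in litter B).

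Red cell precursors are rich in Tfrc, so erythroid markers were read beside it. Of 9 listed markers 8 were measured, and 1 of these 8 was higher in iSOD2 mice. Their summed normalized counts were 60963 to 120499 in controls and 57538 to 83486 in iSOD2 mice, a list difference of -0.37 on the log2 scale (exact permutation p = 0.159, adjusted over 6 lists 0.477). The highest sum, 120499, was in control 3, the mouse with the highest Tfrc, and the next, 118096, in control 6, whose Tfrc was 7829. Control 2 had a Tfrc count of 8055 with a sum of 69988. The part of these cells in the Tfrc values was not tested.

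Slc40a1, the iron exporter, differed by less than its spread. Slc40a1 (NM_016917, chromosome 1, 45908070 to 45925594, minus strand, 3370 bp of exon) had 459, 415, 497, 450 and 362 normalized counts in controls 1, 2, 3, 4 and 6, and 348, 476, 450, 469 and 487 in iSOD2 mice 5, 7, 8, 9 and 10. iSOD2 mouse 5 and control 6 were low, and the other 8 mice lay between 415 and 497. The means were 437 ± 50.7 and 446 ± 56.4 (SD, n = 5 each), with a log2 difference of 0.03, a 95% interval of -0.18 to 0.24 and an adjusted p of 0.919 (DESeq2). Macrophages that recycle iron are rich in this exporter. Of 10 macrophage markers 2 were higher in iSOD2 mice, their sums ran from 7042 to 8896 in controls and from 6238 to 8419 in iSOD2 mice, and the list differed by -0.09 on the log2 scale (exact permutation p = 0.405).

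The differences followed exon length across the table, and the iron genes span that range. When 12151 genes were split into 5 classes of about equal size by exon length, in the shortest class (53 to 1676 bp) the median log2 difference between genotypes was 0.11, and in the longest (4935 to 101359 bp) it was -0.08. Iscu, Fth1 and Ftl1 belong to the shortest class, class 1, Nfs1 to class 2, Slc40a1 to class 3, Tfrc and Aco1 to class 4 and Ireb2 to the longest, class 5. The slope of log2 deviation on log2 exon length was above 0 in all 5 controls (0.00619 to 0.0528) and below 0 in all 5 iSOD2 mice (-0.0513 to -0.018), so that this property of the libraries and the genotype cannot be told apart. After a smooth trend with exon length was removed from each library, Iscu stood at 0.18 (adjusted p = 0.278), Ireb2 at -0.14 (0.292) and Ftl1 at 0.07 (0.837) on the log2 scale. Fth1 moved below zero, to -0.11 (0.303). In that fit DESeq2 called 0 of the 8 genes and 1.35% of all genes, 0 of the 8 passed the adjusted p, and 3 of the 8 (Fth1, Ireb2 and Iscu) had an unadjusted p under 0.05.

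**Figure D3:**
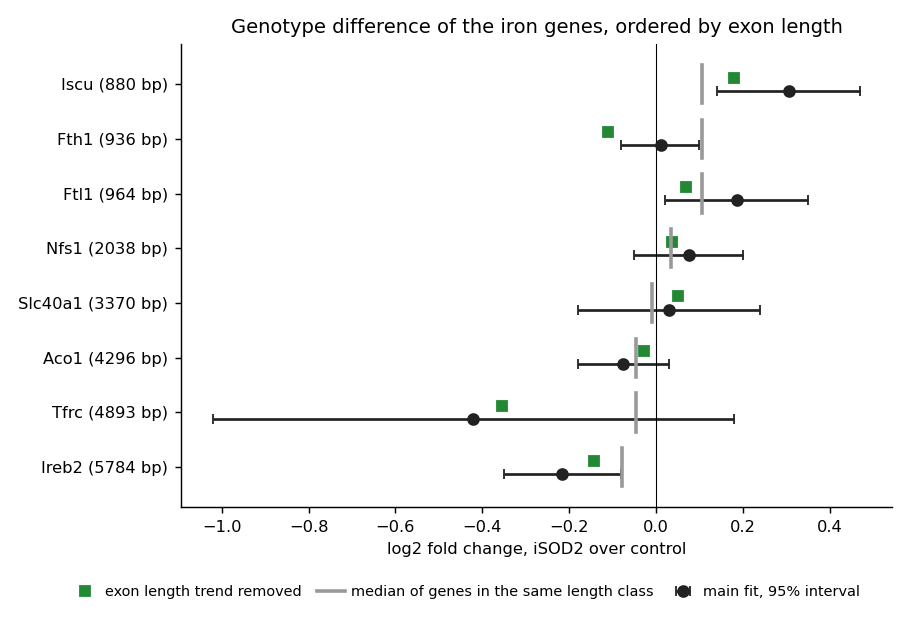
Log2 fold change of iSOD2 over control for each gene, from the shortest exon length to the longest; black points give the DESeq2 value with its 95% interval, green squares the value after the trend with exon length was removed, and grey bars the median of all genes in the same length class. Iscu lies to the right of its class median of 0.11 and Ireb2 to the left of its own of -0.08, and Fth1 moves from 0.01 to -0.11.

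Litter and sex were tested with genotype in the model. DESeq2 called 0 of the 8 genes between litters, where 3.5% of 15654 genes were called, and 0 had an unadjusted p under 0.05, against 13.0% of all genes. Tfrc came nearest, at 0.47 on the log2 scale higher in litter B with an SE of 0.27 (adjusted p = 0.435), and it was called when control 4 was left out (0.63, adjusted p = 0.0312). Between sexes DESeq2 called 0 of the 8 and 0.42% of 17379 genes. Ireb2 was the 1 gene with an unadjusted p under 0.05, a mark that 6.6% of all genes reached, at -0.16 in females against males with an SE of 0.06 (adjusted p = 0.268). The interaction of genotype and sex passed for 0 of the 8 genes and 0.0% of all genes in DESeq2, and 0 of the 8 had an unadjusted p under 0.05, against 1.18% of all genes. The widest interaction was that of Tfrc, 0.58 with an SE of 0.66, whose means were 8656 and 5524 in control and iSOD2 males and 6132 and 5838 in females. edgeR also called 0 of the 8 for litter, sex and the interaction.

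Ratios between genes that work together were read per length in each mouse, as a description without a test. Heavy over light ferritin chain averaged 3.51 ± 0.30 over controls against 3.10 ± 0.297 over iSOD2 mice (SD, n = 5 each), with ranges of 3.06 to 3.84 and 2.68 to 3.46 that overlapped. Aco1 over Ireb2 was 1.56 ± 0.0872 in controls and 1.72 ± 0.0892 in iSOD2 mice, with ranges of 1.45 to 1.68 and 1.59 to 1.81. Nfs1 over Iscu was 0.863 ± 0.0816 and 0.735 ± 0.0433, with ranges of 0.753 to 0.958 and 0.691 to 0.797 that overlapped. Receptor over heavy chain, Tfrc over Fth1, was 0.122 ± 0.0451 and 0.0913 ± 0.0285, with ranges of 0.0683 to 0.189 and 0.0517 to 0.123 that overlapped. In the first and the last of these ratios neither gene had a fold change that passed the test. In the other ratios Aco1 and Nfs1 did not pass either. The ratio of the ferritin chains also depends on how reads shared between Ftl1 and other genes were counted, which is not known. Nfs1 has more exon than Iscu (2038 against 880 bp) and Tfrc more than Fth1 (4893 against 936 bp). The trend with exon length was not removed from the ratios, and its part in them was not tested.

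Pairs of genes with a shared role were also followed across the 10 mice, 5 relations in all. Aco1 and Ireb2 gave the highest value (Pearson's r = 0.76, permutation p = 0.0104, adjusted over 5 relations 0.052; Spearman's rho = 0.60, permutation p = 0.0742, adjusted 0.22). Without controls 2 and 3, the mice farthest from the median of Aco1, r was 0.32, and within the 6 mice of litter B it was 0.88. It was 0.72 without control 2 alone and 0.59 without control 3 alone. Leaving out the mice farthest from a median narrows the range, which can itself lower r, here and for the other relations. Whether the relation rests on those mice can therefore not be told from these values. Iscu and Nfs1 gave r = 0.62 (permutation p = 0.0568, adjusted 0.142) and rho = 0.55 (permutation p = 0.105, adjusted 0.22), with r = 0.38 without iSOD2 mice 5 and 7 and 0.74 in litter B. Fth1 and Ftl1 gave r = 0.29 (permutation p = 0.417, adjusted 0.417) and rho = 0.41 (permutation p = 0.248, adjusted 0.31), with r = 0.21 without control 1 and iSOD2 mouse 7 and 0.10 in litter B. Fth1 and Tfrc gave r = -0.42 (permutation p = 0.225, adjusted 0.281) and rho = -0.32 (permutation p = 0.37, adjusted 0.37), with r = -0.08 without those same mice and 0.04 in litter B. Slc40a1 and the mean level of the macrophage markers gave r = 0.44 (permutation p = 0.203, adjusted 0.281) and rho = 0.52 (permutation p = 0.132, adjusted 0.22), with r = 0.37 without control 6 and iSOD2 mouse 5 and 0.97 in litter B. None of the 5 passed after adjustment, and litter A with 4 mice was too small for a value.

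The wider set of iron genes came from 8 lists with 102 genes, of which 101 were in the table and 80 had an adjusted p. In iSOD2 mice 49 of the 80 (61.2%) stood higher and 31 lower, with a median log2 difference of 0.06 against -0.01 for all genes tested, and 0.02 once the trend with exon length was removed. DESeq2 called 2, Cisd1 higher and Pcbp2 lower, where 2.96% of all genes were called. On adjusted p alone, which 6.09% of all genes passed, 8 were higher and 1 was lower, and after removal of the length trend 1 passed. Values per gene are given for those called and for the 2 genes with an adjusted p and the greatest difference in each list, and for those that passed on p alone, which were added after their values were seen.

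Uptake and handling of iron in the cytosol showed 2 of 11 tested genes higher and 9 lower, with a median of -0.08. Pcbp2, a poly(C)-binding protein that delivers iron to ferritin, had 1312, 1331, 1328, 1193 and 1117 normalized counts in controls 1, 2, 3, 4 and 6, and 1052, 1031, 930, 931 and 911 in iSOD2 mice 5, 7, 8, 9 and 10. Every iSOD2 mouse was below every control. Separation without overlap, in either direction, was seen in 10 of the 80 other iron genes and in 5.71% of all genes with an adjusted p. Its means were 1256 ± 96.4 and 971 ± 65.3 (SD, n = 5 each), and it fell by 0.37 on the log2 scale with an SE of 0.07 and an adjusted p of 0.000108 (DESeq2), and by the same 0.37 with the length trend removed. edgeR gave it an adjusted p of 0.0664, and it was not called in litter B alone (-0.33, adjusted p = 0.140) or in females alone (-0.26, adjusted p = 0.803). Slc25a37, which imports iron into mitochondria, stood at -0.19 (adjusted p = 0.310). Its family member Slc25a28, added after its values were seen, stood the other way at 0.16 (adjusted p = 0.371). The 4 other genes known for an iron-responsive element included Alas2, the first enzyme of heme synthesis in red cell precursors and 1 of the erythroid markers, at -0.36 (adjusted p = 0.345), and Slc11a2, a carrier of ferrous iron, at -0.16 (adjusted p = 0.245).

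Genes of iron-sulfur assembly in mitochondria other than Iscu and Nfs1 were higher in 12 of 14 cases (8 of 14 with the length trend removed), with a median of 0.10, and 3 passed the adjusted p, as 6.09% of all genes did. These were Bola3, which helps to hand clusters to target proteins, at 0.22 (adjusted p = 0.0186), the cluster-carrying glutaredoxin Glrx5 at 0.18 (0.0288) and Ndufab1, the mitochondrial acyl carrier protein that joins the Nfs1 complex, at 0.19 (0.0472). None of the 3 reached the fold-change threshold. Isca2 was at 0.22 (adjusted p = 0.187). In the assembly machinery of the cytosol 6 of 8 were higher (8 of 8 with the length trend removed) and none passed in DESeq2, 2 having an unadjusted p under 0.05, with Nubp2 at 0.28 (0.0614) and Fam96b at 0.15 (0.172). With litter as covariate Nubp2 was called (0.28, adjusted p = 0.0469). After removal of the length trend the medians of both lists were 0.04, and none of the 3 genes that had passed did so again.

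Proteins of mitochondria that carry iron-sulfur clusters were higher in 9 of 13 cases with a median of 0.13, and 5 passed the adjusted p, against 6.09% of all genes. Cisd1, a cluster protein of the outer mitochondrial membrane, had 1505, 1391, 1325, 1594 and 1421 normalized counts in controls 1, 2, 3, 4 and 6, and 1973, 1689, 1810, 1602 and 1704 in iSOD2 mice 5, 7, 8, 9 and 10. Each iSOD2 mouse was above each control, the closest being iSOD2 mouse 9 and control 4. Such separation was seen in 4 of the 13 genes and in 5.71% of all genes with an adjusted p. The means were 1447 ± 104 and 1756 ± 142 (SD, n = 5 each), and Cisd1 rose by 0.28 on the log2 scale with an SE of 0.07 and an adjusted p of 0.00537 (DESeq2). It lost the call without control 3 (0.25, adjusted p = 0.0503) and without iSOD2 mouse 5 (0.23, adjusted p = 0.0203). It was also not called with sex and litter as covariates (0.25, just under the fold-change threshold, adjusted p = 0.00888), in litter A alone (0.27, adjusted p = 0.148), in litter B alone (0.28, adjusted p = 0.320), in males alone (0.22, adjusted p = 0.223), in females alone (0.28, adjusted p = 0.635) or with edgeR (adjusted p = 0.0828). The other 4 were respiratory chain subunits below the fold-change threshold: Uqcrfs1 of complex III at 0.22 (0.0217), Ndufs7 and Ndufs8 of complex I at 0.20 (0.0147) and 0.14 (0.00958), and Sdhb of complex II at 0.16 (0.0406). With the length trend removed Cisd1 stood at 0.16 (adjusted p = 0.161), none of the 5 passed, and the median of the list was 0.05.

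The remaining lists held no gene that passed in DESeq2 or was called by edgeR, and each of them had 2 genes with an adjusted p that stood at an unadjusted p under 0.05, against 20.0% of all such genes. In the systemic list 2 more, Tfr2 and Tmprss6, had an unadjusted p under 0.05 (0.00471 and 0.00369, at 1.32 and 0.97 on the log2 scale) but no adjusted p, with means of 30.7 and 36.5 normalized counts. Systemic iron proteins were higher in 3 of 6 (5 of 6 with the length trend removed), with Hpx, which binds free heme, at 1.20 (adjusted p = 0.402) and Trf, which encodes transferrin, at 0.69 (adjusted p = 0.191). Trf had 1580 ± 552 normalized counts in controls against 2552 ± 903 in iSOD2 mice (SD, n = 5 each). Hpx and Trf are secreted mainly by the liver. The 8 hepatocyte markers, given above, were higher in the same direction as Hpx, Trf, Tfr2 and Tmprss6. The part of hepatocyte RNA in these values was not tested. Heme synthesis and breakdown was split 7 to 7 (4 of 14 higher with the length trend removed), with a median of 0.00. Cpox, an enzyme of heme synthesis in mitochondria, stood at -0.20 (adjusted p = 0.0931). Cluster proteins of cytosol and nucleus were higher in 10 of 14, led by the xanthine-oxidizing enzyme Xdh at 0.34 (0.115) and the antiviral protein Rsad2 at 0.28 (0.119).

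**Figure D4:**
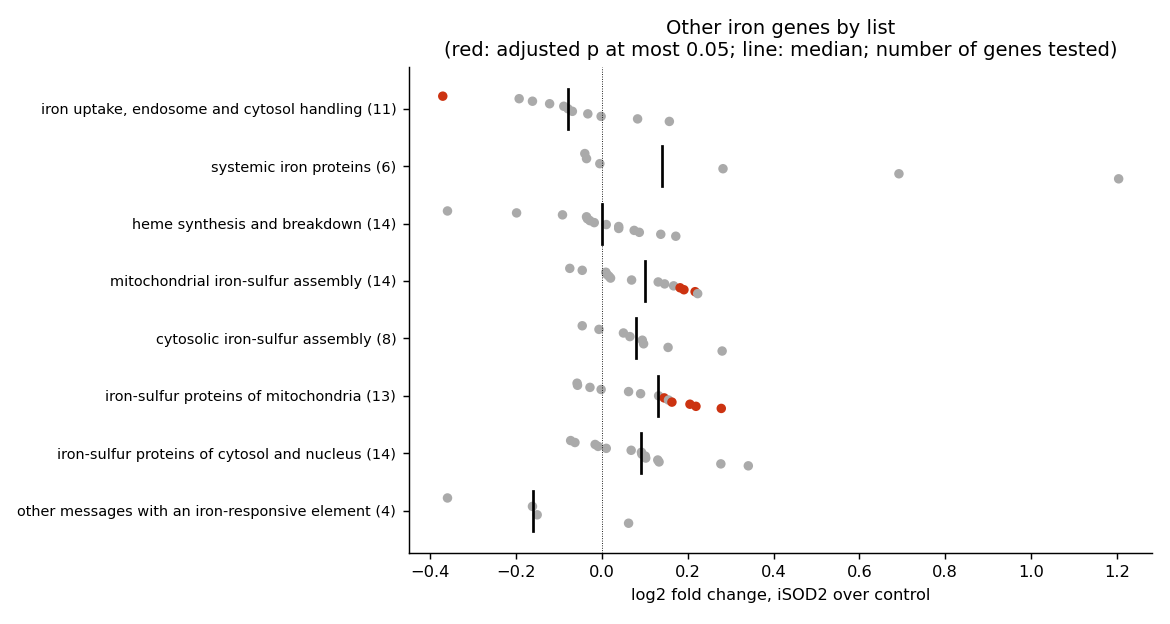
Log2 fold change of iSOD2 over control for each tested gene of 8 lists of other iron genes, 1 point per gene, red where the adjusted p was at most 0.05, with a black line at the median of each list. Pcbp2 is the red point on the left at -0.37, and the 8 red points on the right, among them Cisd1 at 0.28, lie in the lists of mitochondrial assembly and mitochondrial cluster proteins.

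The genes most like each iron gene across the 10 mice were listed by Pearson's r over 12151 genes, as a description in which all points share libraries, depth and the trend with exon length. Iscu was nearest to D10Jhu81e (r = 0.982), Nsfl1c (0.973) and the cluster-bearing complex I subunit Ndufs7 (0.972), and Nfs1 to Cyhr1 (0.973), Gpn1 (0.938) and Pccb (0.932). Ireb2 was nearest to Gm11651 (0.966), Ppp2r2a (0.958) and Atxn2 (0.956), and Aco1 to Irak4 (0.939), Fam120a (0.935) and Cep295 (0.926). For Ftl1 the nearest were Tst (0.936), the ribosomal protein gene Rps13 (0.925) and Gm14403 (0.922), and for Tfrc they were C5ar1 (0.914), Csnk1g3 (0.902) and Wdr3 (0.902). Fth1 and Slc40a1 had lower leading values, 0.866 with Zbtb49 and 0.868 with Zkscan5. No iron gene of the set was among the 3 nearest of another.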

How the data were processed

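Ribosome-depleted total RNA from heart tissue of 10 mice was sequenced, with 16448090.5 to 24263085.5 counts in genes per library. The authors trimmed reads with Trim Galore, aligned them to mm10 with STAR and summed them over exons with HOMER, 1 transcript per gene. The deposited values are estimated counts in steps of 0.5, not normalized (36.4% are not whole), and the deposited table gives another unit, exon length in base pairs. No strand option was stated for counting, and how reads with several matches were counted is not given in the sources used here. No gene of the mitochondrial chromosome was analysed here. No library was a copy of another (lowest chi-square per degree of freedom over 45 pairs, 5.46).

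Counts were rounded, genes with fewer than 10 summed counts left out (17728 kept), and genotypes fitted in DESeq2 1.42.0 (R 4.3.3, Wald test) without covariates, with Benjamini-Hochberg adjustment over the whole table (9479 genes kept by independent filtering) and the thresholds of the study's methods (adjusted p at most 0.05, absolute log2 fold change above 0.25). Fold changes were not shrunken. Litter and sex were tested with genotype in the model. Sod2 and marker lists were tested by exact permutation of the genotype labels (two-sided, 252 arrangements, smallest possible p 0.00794), and correlations of log2(normalized count + 1) with 100000 permutations. Precision was limited by the spread between the 5 mice per genotype, which DESeq2 and edgeR estimate with information shared across genes. The mice came from litters A and B, which the main fit did not include. Alternatives were edgeR 4.0.16, other scalings, filters and covariates, each litter or sex alone, each mouse left out, and removal of a smooth trend with exon length in each library. The scripts were tested on simulated data. Genes named are the 8, and in each other list those called or otherwise the 2 with an adjusted p and the greatest absolute log2 fold change at a mean of at least 50, and for each of the 8 the 3 genes with the highest Pearson's r. The members, lists and tests were chosen with earlier results of these data known.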

Additional observations from a re-analysis of the deposited data

Results flagged for a closer look

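In 30 groups of 5 values, 2 held a mouse whose gap to its neighbour exceeded Dixon's 95% critical value of 0.71, where chance gives about 1.5. Slc40a1, the iron exporter, had 348 normalized counts in iSOD2 mouse 5, the lowest of its genotype (ratio of gap to range 0.73). Sod2 had 9562 normalized counts in control 6, the lowest control (ratio 0.747).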

How the results depend on the processing

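Of the 8 iron genes, the 1 called (Iscu) became 0 with edgeR, with the exon length trend removed, with that trend removed and litter as covariate (an alternative chosen after seeing the data), in females alone, in males alone and in litter B alone, and 2 with no fold-change threshold; with each mouse left out it ranged from 0 to 2. Iscu kept its direction in 24 of 24 alternatives (0.18 to 0.44, adjusted p 0.00272 to 1.0) and was called in 16. Ireb2 kept its direction in 24 of 24 (-0.28 to -0.14, adjusted p 0.00817 to 1.0), passed the adjusted p in 10 and was called in 1. Of the other iron genes, the 2 called became 0 with edgeR and in litter B alone, 1 with the length trend removed, in females alone, in males alone and with sex and litter as covariates, 3 with litter as covariate (Nubp2 added) and with the trend removed and litter as covariate (Pcbp2, Tfr2 and Tmprss6), and 9 with no fold-change threshold, and ranged from 1 to 5 with each mouse left out, where Xdh (without control 2), Tfr2 (control 3), Bmp6, Alas2 and Uqcrfs1 (control 4) and Bola3 and Rsad2 (control 6) were called. The 2 in litter A alone were Pcbp2 and Alas1, and the 1 in females alone was Hp. Pcbp2 was called in 21 of 24 alternatives (adjusted p 3.29e-06 to 0.803), Cisd1 in 14 (0.000867 to 0.635) and Ftl1 in 1 (0.0122 to 1.0). Litter calls ranged from 0 to 1 with each mouse left out.

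Fth1 was at -0.11 with the length trend removed, with or without litter as covariate, at -0.04 in females alone and at -0.06 in litter B alone, and from -0.02 to 0.028 with each mouse left out. Slc40a1 was at -0.007 in litter B alone and from -0.032 to 0.108 with each mouse left out, and Nfs1 at -0.002 in males alone. With the trend removed, r became -0.03 for Fth1 with Ftl1 and 0.17 for Fth1 with Tfrc. In that setting Aco1 with Ireb2 went from 0.76 to 0.54, Iscu with Nfs1 to 0.53 and Slc40a1 with the macrophage markers to 0.42. With each mouse left out, r ran from -0.70 to 0.03 for Fth1 with Tfrc and from 0.59 to 0.87 for Aco1 with Ireb2, Sod2 from -0.006 to 0.05, cardiomyocyte markers from -0.038 to 0.014 and endothelial markers from -0.004 to 0.055. Erythroid markers had an exact permutation p of 0.0476 without iSOD2 mouse 10. The causes of these changes were not tested.

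No paired analysis was possible because the numbers in the labels are mouse numbers and none is shared between the genotypes. Depth was no limit for these genes, the scarcest of which, Slc40a1, averaged 437 normalized counts in controls.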
